A study of Mus musculus with 12 samples.

Results

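ENT1, the product of Slc29a1, is a membrane carrier that lets nucleosides such as adenosine move down their gradient, and it takes part in ending adenosine signalling in heart and kidney. The question here was where the loss of this carrier changed gene expression differently in the 2 tissues. The quantity described is the knockout effect in heart (knockout minus wild type) minus the knockout effect in kidney. It used all 12 of the 12 arrays of the series, 3 in each of 4 groups. These were heart of mENT1 knockout mice, heart of wild type mice, kidney of mENT1 knockout mice and kidney of wild type mice, with FVB/N given as the background of all 4. The age and sex of the mice, the part of the gene removed, and which mouse gave which array are not given in the sources used here.

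Each sample's total RNA was labelled with Cy3 and hybridised to 1 Agilent mouse array. Values are log2 signals relative to the 75th percentile of the array, so a difference of 1 is a 2-fold change in signal. Only probes well above background on all 12 arrays were used, which left 22110 of 41174 probes and 15038 genes at 1 probe a gene. Calls were made with limma at an adjusted p under 0.05. A positive difference means that the knockout effect was higher in heart than in kidney. A simulation of these arrays with 15038 genes recovered 21 of 100 genes whose effects differed by 1 log2 unit and 75 of 100 that differed by 2, with 3 false calls among 99. Its noise was drawn independently for each gene and array, with no effect of slide, sex or replicate letter. These counts therefore do not cover errors from such effects in the real arrays. Nothing in the labels says that the arrays of a group came from separate preparations in each tissue, so p-values measure the spread between these samples.

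Several features of the arrays bear on every result. Heart genes such as Myh6 and kidney genes such as Umod marked the labelled tissue on all 12 arrays. Xist, transcribed from the silenced X of females, gave a signal on 3 arrays, namely knockout hearts a and b and knockout kidney a. The other 9 showed 4 Y-linked genes. With 2 Xist-positive knockout hearts and 1 Xist-positive knockout kidney, the 6 knockout arrays cannot be both tissues of a single set of 3 mice. The arrays lay on 4 slides. All knockout hearts were on slide 3 and all wild type hearts on slide 4, so for heart the genotypes cannot be told apart from their slides. Slide 2 held knockout kidneys b and c and wild type kidneys a and b. The authors' deposited table matched the scanner arrays only with the genotypes exchanged. Each of its 12 columns tracked the array that bears its tissue and letter and the opposite genotype (correlation of at least 0.99988 across 41005 probes). Directions below rest on the scanner labels, under which Slc29a1 is lower in knockouts, and the table's labels would turn every sign.

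Across the 15038 genes the difference was called for 46, or 0.306%. The heart effect was higher for 41 (0.273%) and lower for 5 (0.0332%). In 44 of the 46 the effects had opposite signs. By a ratio of at least 2 between the effect sizes, 9 were mainly heart changes and 2 mainly kidney changes. The other 35 had effects of opposite sign with a ratio under 2, which is not a test in each tissue. Among these 35, AB069910 alone was called in both tissues. Taken by itself the heart effect was called for 87 genes (0.579%), 72 higher in knockouts (0.479%) and 15 lower (0.0997%). The kidney effect was called for 55 (0.366%), 28 higher (0.186%) and 27 lower (0.18%). At an adjusted p under 0.1 the difference counted 108 genes, and 2189 had an unadjusted p under 0.05. The count of 46 moved by over 1.5 times with any of 9 of the 12 arrays left out. It was 14 without knockout heart a, 14 without b and 1018 without c. It was 74 without wild type heart a, 2 without b and 3 without c. It was 2 without knockout kidney b, 28 without wild type kidney a and 2 without wild type kidney b. Without knockout kidney a, knockout kidney c or wild type kidney c it was 57, 38 and 68. Arrays of the same letter deviated together in heart (3 of 3 pairs) but not in kidney (1 of 3), and limma called 18 with letter as a block in all groups and 123, of which 45 were among the 46, with letter as a block in heart alone. With background corrected by normexp and an offset of 50 added, limma called 0, with 1155 at an unadjusted p under 0.05. The parts of the correction and of the offset were not separated, here or in the normexp results below. With slide as a random block limma called 2, AB069910 and Amn. With arrays scaled by their median it called 87, of which 53 were higher in heart and 34 lower, against 41 and 5.

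**Figure D1:**
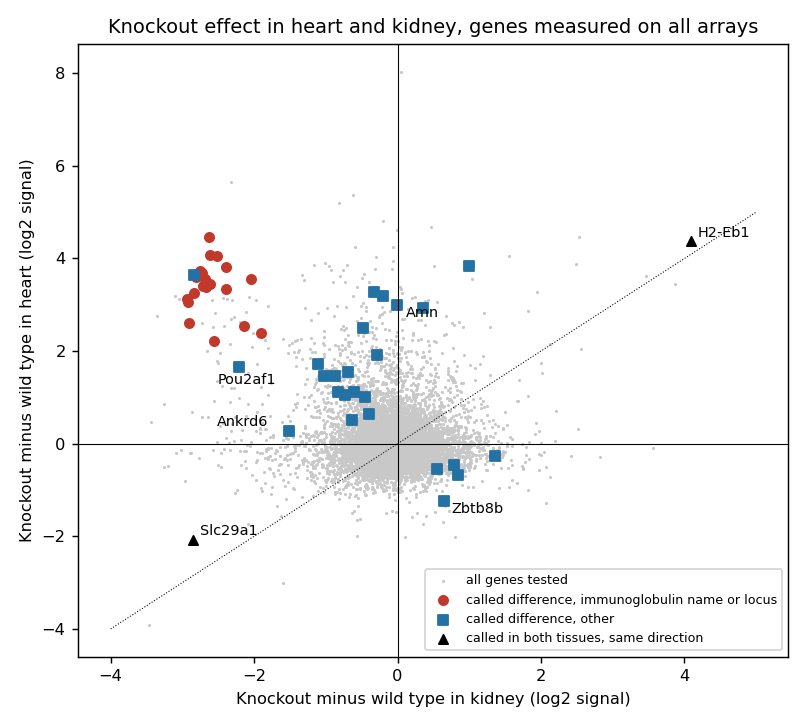
Knockout effect in kidney (horizontal axis, log2 signal) against knockout effect in heart (vertical axis, log2 signal) for 15038 genes measured on all 12 arrays; the dotted line marks equal effects. The 21 called transcripts of immunoglobulin name or locus (red circles) lie at the upper left, higher in knockout hearts and lower in knockout kidneys, and H2-Eb1 and Slc29a1 (triangles) lie near the line.

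The largest group among the called genes was made of immunoglobulin transcripts, which encode the antibody chains made by B lymphocytes and plasma cells. Each chain has a variable part and a constant part, and a plasma cell transcribes the genes of its chains at a very high level. In these arrays 17 of the 48 measured transcripts that are immunoglobulins by name or description were called, all with a higher effect in heart, against 0.273% of all genes. A further 4 called transcripts were among 19 that were placed in the group only by their position at those loci on chromosomes 12 and 6. The files describe some of the 19 as antibody chains in words the search of names did not match and others as different genes, such as a ribosomal protein, and describe the 4 called ones only as complementary DNA clones or as unknown. Over the 21, heart effects ran from 2.23 to 4.47 (median 3.44) and kidney effects from -2.93 to -1.90 (median -2.67). This grouping was made after the values were seen and has no test of its own.

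Probes of 4 of these transcripts are printed below, because they show the sequence that was measured, with 1 more called probe of unknown position that shares part of their sequence. Capitals mark the letters TATTACTG, which code for the Tyr-Tyr-Cys end of the third framework of a variable segment when they are in frame. Positions are those of build mm7, and the sequences are the deposited probes.
AB069910 (chr12:112641140-112641199): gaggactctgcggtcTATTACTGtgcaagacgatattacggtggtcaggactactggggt
BC108385 (chr6:70690221-70690280): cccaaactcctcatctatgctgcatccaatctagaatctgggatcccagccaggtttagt
LOC434026 (chr6:68128606-68128665): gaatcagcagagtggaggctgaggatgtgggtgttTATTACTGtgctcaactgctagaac
LOC628027 (chr6:67701639-67701698): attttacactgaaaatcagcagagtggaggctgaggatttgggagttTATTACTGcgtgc
A_52_P490470 (position not in the files): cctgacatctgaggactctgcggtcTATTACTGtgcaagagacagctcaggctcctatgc

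These letters, searched on both strands, were in 10 of these 21 called probes, in 14 of the 67 measured probes of immunoglobulin name or locus and in 0.345% of all 41174 probes. Of the 25 other called probes, A_52_P490470 alone held them. That probe matched the immunoglobulin probe AB070542 at 45 of 60 bases, and it differed by 6.47 ± 0.93 (SE; adjusted p of 0.0215 by limma). Of 103 other probes sampled across the array, none matched any of the 67 at more than 32 bases. Among the 21 called probes, 8 matched another of the 67 at 45 bases or more, so such probes can bind each other's transcripts and are not independent measurements.

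AB069910, a heavy chain variable transcript on chromosome 12, had the smallest p. Its level was -0.94, -1.92 and -1.69 on the knockout hearts (a, b, c in turn) and -4.57, -6.20 and -5.99 on wild type hearts. On knockout kidneys it was -4.52, -4.23 and -3.78, and on wild type kidneys -1.78, -1.55 and -1.38. Knockout hearts and wild type kidneys were thus high, wild type hearts and knockout kidneys low, and neither pair of groups overlapped. The effect was 4.07 ± 0.40 (SE, n = 3 and 3) in heart and -2.61 ± 0.40 (SE, n = 3 and 3) in kidney, and the difference reached 6.68 ± 0.56 (adjusted p of 0.00176 by limma). This call was kept with each of the 12 arrays left out in turn and with slide as a random block. With only the arrays without Xist signal, which leaves knockout heart c alone and assumes that it varies like the other groups, the difference was 6.33 (adjusted p of 0.0163). It was lost with normexp (2.51, adjusted p of 0.617).

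BC108385, a transcript at the kappa light chain locus on chromosome 6, stood at 0.07, -1.54 and -2.74 on knockout hearts and at -5.27, -6.21 and -6.13 on wild type hearts. Knockout kidneys gave -4.95, -4.61 and -3.89 and wild type kidneys -2.12, -1.71 and -1.73. Again both tissues separated the genotypes, in opposite directions. This made a difference of 7.10 ± 0.80 (adjusted p of 0.0117 by limma). The call ended without wild type heart b or c, knockout kidney b or wild type kidney b (adjusted p of 0.0525 to 0.0576).

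LOC434026 and LOC628027, both predicted kappa chain variable transcripts under the names the array files give, showed the same order of groups. LOC434026 was at -2.65, -2.81 and -3.94 on knockout hearts against -4.29, -6.59 and -6.32 on wild type hearts. In kidney it was at -4.92, -4.52 and -4.03 against -1.72, -1.03 and -2.02. Its difference was 5.50 ± 0.79 (adjusted p of 0.0215 by limma), and LOC628027, with 3.33 in heart and -2.39 in kidney, gave 5.72 ± 0.89 (adjusted p of 0.0292). The LOC434026 call ended without knockout heart a or b, wild type heart b or c, knockout kidney b or wild type kidney b (0.0554 to 0.0948). The LOC628027 call ended without any of the same arrays or wild type kidney a (0.0688 to 0.114), and it was lost with letter as a block in all groups (0.0756).

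Over the 48 immunoglobulin genes known by name or description, 48 had a positive difference, with a median of 5.16 against 0.01 for all genes. In 27 of the 48 the knockout hearts all lay above and the knockout kidneys all below the wild types, against 1.1% of all genes (the reverse order held for 0.851%). The heart effect by itself was called for 9 of 48, all higher, and the kidney effect for 1, which was lower. In wild types the kidney stood above the heart for 46 of 48, and in knockouts the heart stood above the kidney for 48 of 48. Levels varied within groups. The median of the 48 was -0.02, -1.34 and -2.30 on the knockout hearts, and -2.48, -5.19 and -4.94 on wild type hearts, so wild type heart a came close to knockout heart c. In kidney the medians did not overlap, at -4.29, -3.60 and -2.58 on knockouts and -0.99, -0.88 and -1.16 on wild types. Within slide 2 the median kidney effect of the 48 was -2.22, and both knockouts lay below both wild types for 47 of them. The share of all genes with that order within slide 2 was not counted. The direction held for 48 of 48 with each array left out. The 17 calls became 1 without wild type heart b or c, knockout kidney b or wild type kidney b. They became 34 without knockout heart c and 32 without wild type heart a, among 1018 and 74 genes called in all. With normexp the median difference was 2.59, with 48 of 48 positive and 0 called.

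**Figure D2:**
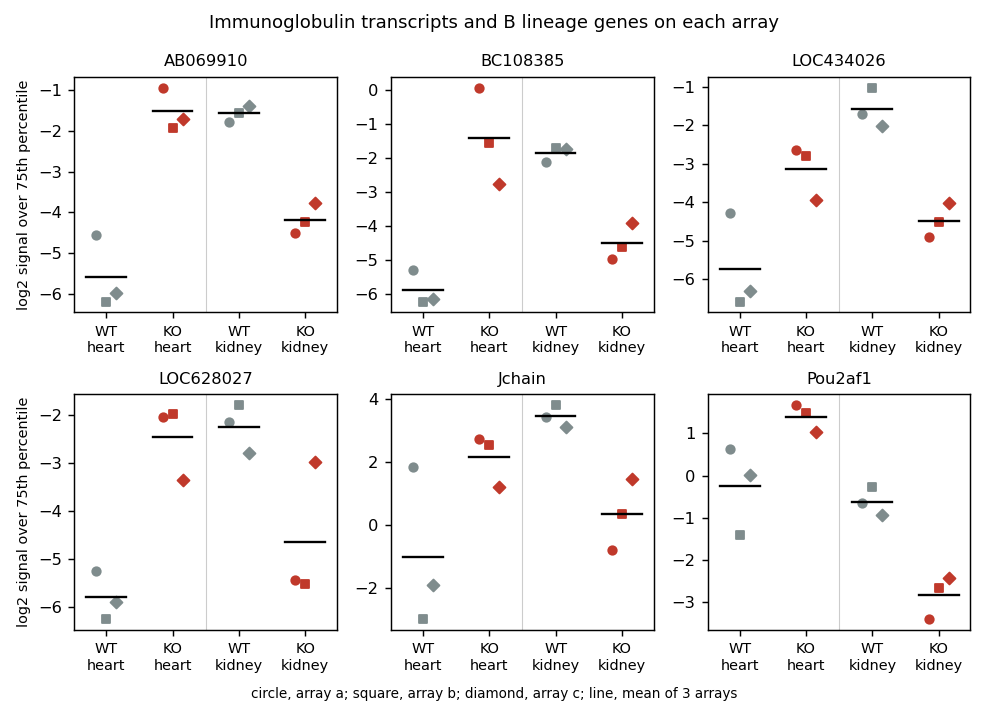
Level on each array (log2 signal over the 75th percentile) of 4 transcripts of immunoglobulin name or locus, Jchain and Pou2af1 in wild type (WT, grey) and knockout (KO, red) heart and kidney; the line is the mean of 3 arrays. AB069910 separates the genotypes in both tissues, while for Jchain wild type heart a lies among the knockout hearts.

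Among the constant and accessory genes of antibodies the pattern was alike but mostly not called. These genes and the B lineage markers were looked at after their values were known, and Pou2af1 was named for the size of its difference. Jchain, Ighg1 and Ighm, given below, are already counted among the 48 immunoglobulin genes and are not further evidence. Pou2af1, a coactivator of octamer promoters in B cells, was at 1.67, 1.49 and 1.02 on knockout hearts against 0.63, -1.41 and 0.01 on wild type hearts. Its kidney levels were -3.39, -2.66 and -2.42 against -0.65, -0.26 and -0.94. The groups overlapped in neither tissue, and the difference of 3.85 ± 0.63 was called (adjusted p of 0.0390 by limma). That call ended without knockout heart a or b, wild type heart b or c, knockout kidney a or b, or wild type kidney a or b (0.0511 to 0.133), and with letter as a block in all groups (0.0846).

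Jchain, which links antibody units into polymers, had a difference of 6.28 ± 1.43 (adjusted p of 0.109 by limma). It was called without wild type heart a (7.71, adjusted p of 0.00461) or knockout heart c (6.76, 0.0254) and not without any other single array, and it was 5.34 (0.594) without knockout hearts a and b and 4.77 (0.428) with only the arrays without Xist signal. Ighg1, a heavy chain constant gene, gave 7.97 ± 1.61 (0.0853) and Ighm, that of IgM, 1.11 ± 0.40 (0.237). Mzb1, a chaperone of antibody secretion, gave 3.86 ± 0.70 (0.0522). The markers of B cells and plasma cells given next differed less and none of them was called. The difference was 0.95 ± 0.70 for Ms4a1 (CD20), 1.48 ± 0.45 for Cd79b, 1.02 ± 0.53 for Tnfrsf17 (BCMA), whose means were lower in knockouts of both tissues, and 0.47 ± 0.29 for Sdc1, with adjusted p of 0.184 to 0.556 by limma. Prdm1, the regulator that drives plasma cell formation, gave 0.18 ± 0.32 (0.840) and Xbp1, a factor of secretory cells, 0.15 ± 0.31 (0.862). In these bulk tissues fewer cells of a type and less RNA per cell cannot be told apart.

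Thymus, lymphocyte and cell cycle genes were high on part of the same arrays. Of 26 thymus and lymphocyte genes measured, 0 were called, all 26 had a positive difference (median 2.60), and 22 had an unadjusted p under 0.05 in that direction, against 8.15% of all genes. Relative to the mean of wild type hearts their median was 3.07 and 3.84 on knockout hearts a and b, 0.27 on knockout heart c, and 0.40, -0.15 and -0.24 on wild type hearts. Dntt, a DNA polymerase of immature lymphocytes in thymus and marrow, was at 5.65 and 6.71 on knockout hearts a and b, -3.40 on c and -5.29 to -4.73 on wild type hearts. Of 29 cell cycle genes measured, 0 were called, all 29 were positive (median 2.38) and 25 passed the unadjusted threshold. Their medians were 1.86, 2.85 and -0.10 on knockout hearts and -0.85, -0.62 and -0.83 on knockout kidneys. Without knockout heart c, 20 of the 26 and 27 of the 29 were called, among 1018 of 15038 genes called in all. Mki67, a marker of dividing cells, gave 3.35 ± 0.77 (adjusted p of 0.109 by limma).

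Knockout hearts a and b are also the hearts with Xist signal. Without them, with knockout heart c assumed to vary like the other groups, the median difference was 0.96 for the thymus and lymphocyte genes and 0.63 for the cell cycle genes. For the 48 immunoglobulin genes it was 4.09, with 48 positive and 4 called among 10 called in all. With only the arrays without Xist signal, which also leaves 1 knockout heart, it was 3.71 for the immunoglobulins, with 48 positive and 7 called among 31. Knockout heart a alone was high for the lung and airway genes, with a median of 5.0 against 0.29 on b and -0.15 on c. Without knockout heart a the immunoglobulin median was 4.64.

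**Figure D3:**
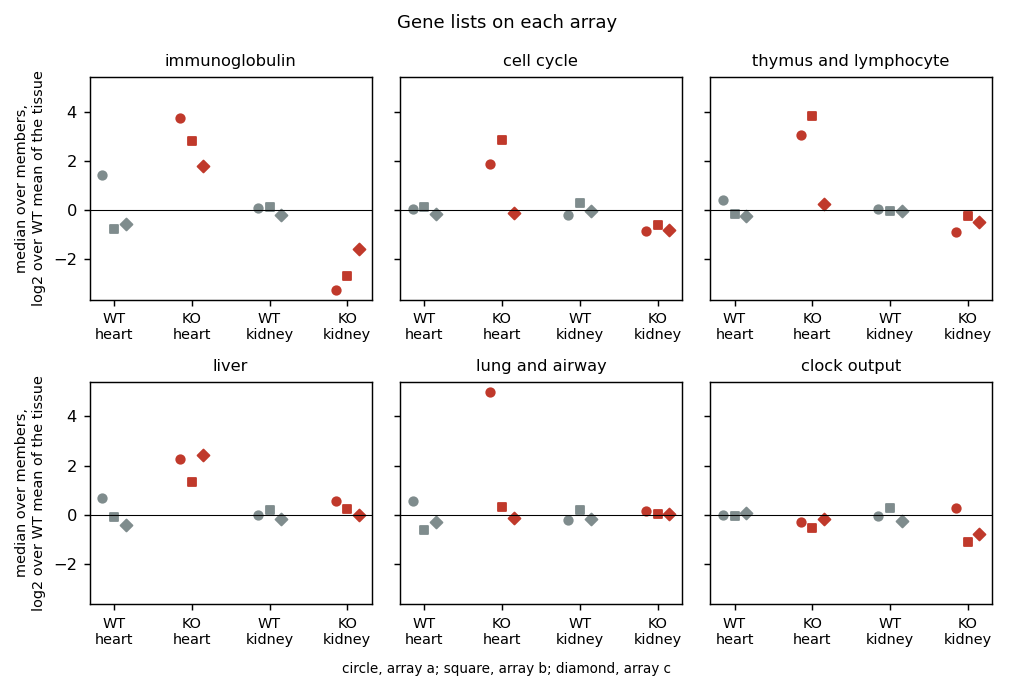
Median over the members of 6 gene lists on each array, as log2 signal relative to the mean of the wild type arrays of that tissue, in wild type (WT, grey) and knockout (KO, red) heart and kidney. The 48 immunoglobulin genes known by name lie at 3.75, 2.80 and 1.80 on knockout hearts and at 1.42 on wild type heart a, cell cycle and thymus genes are high on knockout hearts a and b, and lung genes on knockout heart a.

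The genes called as mainly heart changes were led by transcripts abundant in liver or kidney. Amn, which anchors the receptor that takes up vitamin B12 and filtered proteins in the proximal tubule, was at -2.85, -2.64 and -3.46 on knockout hearts and -6.00, -5.77 and -6.14 on wild type hearts. In kidney it was at 5.41, 5.54 and 5.75 on knockouts and 5.74, 5.55 and 5.43 on wild types. The hearts separated by genotype at a level far below the kidney, while the kidneys overlapped. The difference was 2.99 ± 0.29 (adjusted p of 0.00415 by limma), and this call was kept with each of the 12 arrays left out in turn but not with normexp (1.35, adjusted p of 0.392).

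Fgg, the gamma chain of fibrinogen, was at -2.00, -1.86 and -0.95 on knockout hearts against -4.18, -5.05 and -5.40 on wild type hearts. Its kidney levels of 1.51 to 1.70 in knockouts lay close to the 1.56 to 2.44 of wild types. The difference was 3.60 ± 0.50 (adjusted p of 0.0182 by limma). Plg, the precursor of plasmin, gave 2.58 ± 0.38 (0.0242) and Proc, the anticoagulant protein C, 2.97 ± 0.52 (0.0437). Ces1c, a carboxylesterase of plasma, was higher in knockouts in both tissues, by 3.83 in heart (called) and by 1.0 in kidney (not called), with a difference of 2.83 ± 0.49 (0.0425). Fbp1, an enzyme of gluconeogenesis, was 3.19 higher in knockout hearts, but its probe was saturated on all 6 kidney arrays, so its difference of 3.40 ± 0.41 (0.0142) has no measured kidney side. The Fgg and Fbp1 calls ended without wild type heart b, knockout kidney b or wild type kidney b, and that of Fgg also without wild type heart c (0.0525 to 0.0682). The Plg and Proc calls ended without knockout heart a or b, wild type heart b or c, knockout kidney b or wild type kidney a or b, and that of Ces1c also without knockout kidney c or wild type kidney c (0.0534 to 0.153). With letter as a block in all groups these calls were lost for Fgg, Plg, Proc and Ces1c (0.0591 to 0.0860), and with letter as a block in heart alone for Proc (0.0539). With normexp the difference was 0.10 for Plg and 0.62 for Ces1c.

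Of 15 liver genes measured, Fgg was called for the difference. At an unadjusted p under 0.05, 6 had a positive difference and 1 a negative one, against 8.15% and 6.4% of all genes. The median difference of the 15 was 1.62. That median was 0.86 without wild type heart b and 1.09 without knockout heart a. In the heart effect alone 5 of the 15 were called, against 0.579% of all genes. The median of the 15 on the knockout hearts was 2.26, 1.34 and 2.41 relative to wild type hearts, and on wild type heart a it was 0.69. On knockout kidneys it was 0.56, 0.22 and -0.02. Albumin (Alb) was at 0.31, 0.46 and 1.34 on knockout hearts and -2.13, -2.85 and -3.62 on wild type hearts, and its difference of 2.53 ± 0.73 was not called (adjusted p of 0.178 by limma). Ahsg, the plasma protein fetuin-A that inhibits mineral formation, went the other way. It was at 2.79 to 3.63 on all 6 hearts, and at -0.69, -1.33 and -3.25 on knockout kidneys against -5.80 to -4.87 on wild type kidneys. Its kidney effect of 3.56 was called (adjusted p of 0.0228 by limma), while its difference of -3.67 ± 0.74 was not (0.0853). The part of liver RNA in these values was not tested.

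Klf1, a transcription factor of red cell precursors, was at -3.16, -3.29 and -2.21 on knockout hearts against -4.43, -5.04 and -4.94 on wild type hearts, and its difference was 2.21 ± 0.38 (adjusted p of 0.0398 by limma). Zbp1, a sensor of Z-form nucleic acids induced by interferon, was higher in knockout hearts (0.40, 0.93 and -0.19 against -0.98, -1.13 and -1.15) and lower in knockout kidneys (-3.46, -3.46 and -3.73 against -2.76, -2.66 and -2.63). Neither tissue overlapped, and the difference was 2.33 ± 0.33 (0.0187). The Zbp1 call ended without knockout heart a, wild type heart b or c, knockout kidney b or wild type kidney b (0.0560 to 0.0891). With only the arrays without Xist signal, where knockout heart c stands alone for its group, the Zbp1 difference was 1.81 (0.0214). The Klf1 call was lost with letter as a block in all groups (0.0860) and kept only without knockout heart c or wild type heart a among the 12 arrays left out in turn.

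**Figure D4:**
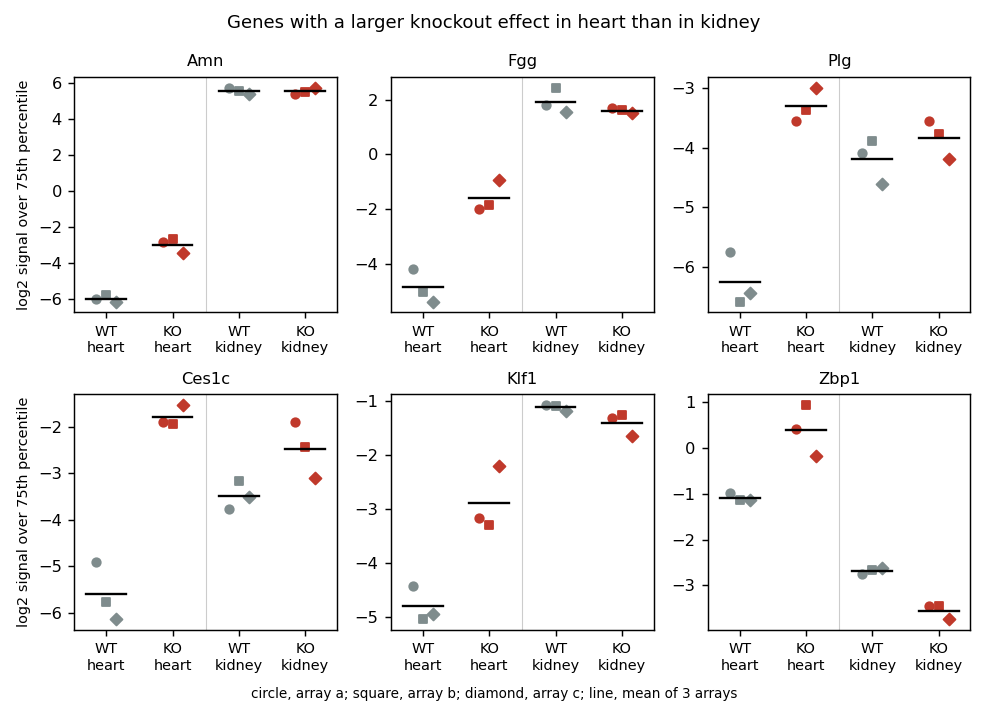
Level on each array (log2 signal over the 75th percentile) of Amn, Fgg, Plg, Ces1c, Klf1 and Zbp1 in wild type (WT, grey) and knockout (KO, red) heart and kidney; the line is the mean of 3 arrays. For all 6 genes the knockout hearts lie above the wild type hearts. For Zbp1 and Klf1 the knockout kidneys lie below the wild type kidneys, and for Ces1c above them.

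Among interferon response genes 25 of 31 had a positive difference, and 0 were called. At an unadjusted p under 0.05, 10 were higher and 1 lower, against 8.15% and 6.4% of all genes. The median difference of the 31 was 0.45. That median was 0.24 without knockout heart c, 0.24 with median scaling and 0.08 with normexp, where 20 of 31 were positive. MHC class II genes, which present antigen, were positive in 9 of 9 (median 0.94), with 7 past the unadjusted threshold, and MHC class I genes in 16 of 17 (median 0.72), with 8. None of these was called. Cd74, the invariant chain of class II, gave 0.93 ± 0.29 (adjusted p of 0.196 by limma). Without knockout hearts a and b the class II median was 0.66, and with only the arrays without Xist signal 0.48.

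Ankrd6, an ankyrin repeat protein of Wnt signalling, was the named gene with a mainly kidney change. Its kidney effect was -1.52 ± 0.22 (adjusted p of 0.0228 by limma), its heart effect 0.28 ± 0.22 (0.549) and its difference 1.80 ± 0.31 (0.0429). On knockout kidneys it was at -1.50, -1.51 and -1.69, and within slide 2 its kidney effect was -1.78. The difference stayed called only without knockout heart c or wild type kidney c among the 12 arrays left out in turn. Apart from A_52_P490470, 9 further called transcripts without a gene symbol had positive differences of 1.04 to 2.83, all with opposite effects in the tissues.

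In the other direction 5 genes were called, all lower in knockout hearts and higher in knockout kidneys, 3 of them with a symbol. Zbtb8b, a zinc finger protein, was at -5.31, -4.51 and -4.65 on knockout hearts against -3.41, -3.62 and -3.72 on wild type hearts. Its kidney levels were -2.39, -1.89 and -1.87 against -2.54, -2.78 and -2.77, so both tissues separated the genotypes. Its difference was -1.89 ± 0.31 (adjusted p of 0.0390 by limma). Ddit4l, an inhibitor of the growth kinase mTORC1, gave -0.68 in heart, 0.84 in kidney and a difference of -1.52 ± 0.26 (0.0398). The uncharacterised 2210016L21Rik gave -1.26 ± 0.22 (0.0427). The Zbtb8b and Ddit4l calls were each kept with 2 of the 12 arrays left out in turn and that of 2210016L21Rik with 4, and otherwise adjusted p ran from 0.0517 to 0.151. All 3 calls were lost with letter as a block in all groups (0.0744 to 0.0813). The next genes by p missed the threshold. Epor, the erythropoietin receptor, gave -1.27 ± 0.23 (0.0503), Lrfn3, a synaptic adhesion protein, -1.11 ± 0.20 (0.0522) and Gpr85, an orphan receptor, -2.49 ± 0.45 (0.0522). Atp2b2, a calcium pump, gave -3.35 ± 0.66 (0.0778) and Hmg20b, a chromatin protein, -1.63 ± 0.32 (0.0811).

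Of 14 glomerulus genes, 11 had a negative difference (median -0.74), 8 of them at an unadjusted p under 0.05, against 6.4% of all genes, and 0 were called. Clic5, a protein of podocyte foot processes, gave -0.94 ± 0.22 (adjusted p of 0.117 by limma) and Synpo, an actin binding protein of podocytes, -0.89 ± 0.24 (0.163). In 21 endothelial genes the median was -0.48, with 4 past the unadjusted threshold and 0 called. Without knockout hearts a and b the medians were -0.34 for glomerulus and -0.28 for endothelium, and with only the arrays without Xist signal -0.26 and -0.25. Both stayed below 0 with quantile and median scaling, where median scaling moved the median of all genes to -0.20.

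The nucleoside carriers and adenosine receptors gave no called difference. Slc29a1 itself was at 1.38, 0.59 and 1.53 on knockout hearts against 3.15, 3.23 and 3.36 on wild type hearts, and at -1.43, -1.30 and -1.43 on knockout kidneys against 1.51, 1.27 and 1.62 on wild type kidneys. In each tissue Slc29a1 was lower on every knockout array than on every wild type array. On knockout hearts a and c it lay within the range of the wild type kidneys. Its effect was -2.08 ± 0.22 in heart and -2.85 ± 0.22 in kidney (adjusted p of 0.00187 and 3.2e-04 by limma), and the difference of 0.77 ± 0.31 was not called (0.287). Whether its probe (chr17:43714823-43714882, mm7) lies in the deleted part is not given in the files. Slc29a2 (ENT2) gave a difference of -0.35 ± 0.31, Slc29a3 (ENT3, of lysosomes) -0.78 ± 0.45 and Slc28a2, a sodium-coupled carrier, 0.36 ± 0.39. Of the receptors, Adora1 gave -1.0 ± 0.39, Adora2a -0.40 ± 0.26 and Adora2b 0.34 ± 0.30. Adjusted p for these 6 ran from 0.272 to 0.708, and a p of this size does not show equal effects. The Adora1 probe used had all knockout kidneys above all wild type kidneys. So did its probe A_51_P188845, while on its probe A_52_P661412 the knockout and wild type kidneys overlapped. Of 31 genes of purine metabolism 15 were positive and 0 called, with a median of -0.03. Nt5e, the enzyme that makes extracellular adenosine from AMP, gave -1.01 ± 0.33 (adjusted p of 0.213 by limma).

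A small set of genes changed in both tissues. Both effects were called for 12 genes (0.0798%), which is 13.8% of the heart calls and 21.8% of the kidney calls. The direction was shared by 11, all but AB069910. H2-Eb1, which encodes a class II beta chain, was at 2.82, 3.31 and 2.62 on knockout hearts against -1.66, -1.31 and -1.40 on wild type hearts. In kidney it was at 1.22, 2.09 and 1.99 against -2.46, -2.14 and -2.35. All 6 knockout arrays lay above all 6 wild type arrays. Its effects of 4.37 ± 0.25 and 4.08 ± 0.25 gave a difference of 0.29 ± 0.35 (adjusted p of 0.742 by limma). H2-Bl rose by 2.16 and 2.13, H2-Q8, a class I gene, by 1.53 and 2.02, Agpat1, an enzyme of phospholipid synthesis, by 1.37 and 1.70, and Sdf2l1, a protein of the endoplasmic reticulum, by 0.98 and 1.15 in heart and kidney.

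The falls were -1.56 and -1.63 for Sik1, a salt-inducible kinase, -0.92 and -1.56 for Grin2c, a subunit of the NMDA receptor, and -1.07 and -2.26 for H2-Aa, an alpha chain of MHC class II. The uncharacterised 5430410E06Rik gave -3.92 and -3.46, and the unnamed transcript AK005018 rose by 4.46 and 2.53. The H2-Aa difference of 1.19 ± 0.28 was not called (0.122). Probes of near-identical MHC genes can share transcripts. Of the 12 genes, 6 had probes between 30 and 44 megabases of chromosome 17 (mm7), the stretch that holds Slc29a1 and the MHC genes. So did 200 of the 14950 tested genes with a position (1.34%). These limits were set after the positions were seen. H2-Aa and AK005018 had no position and H2-Bl none on a named chromosome, so they were counted as outside the stretch. Of the 46 genes with a called difference, 0 had a position in this stretch, and some had no position.

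**Figure D5:**
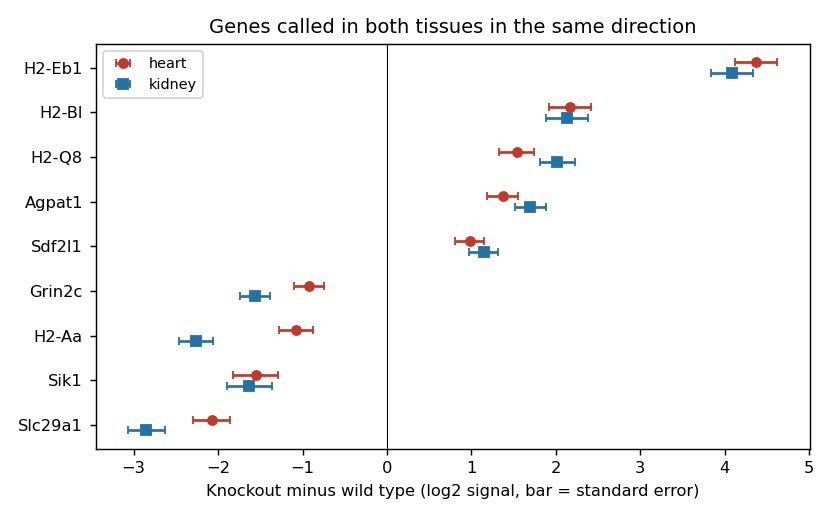
Knockout effect (log2 signal, knockout minus wild type) in heart (red circles) and kidney (blue squares) for 9 of the 11 genes called in both tissues in the same direction; bars are the standard error of the limma fit from 3 arrays against 3. H2-Eb1 shows 4.37 and 4.08, and the heart and kidney points differ most for H2-Aa and Slc29a1.

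Of 12 clock output genes measured, 1 was called in kidney and 0 for the difference, and of 13 core clock genes 0 for either. The median difference was 0.17 for clock output and 0.07 for core clock genes. With only the arrays without Xist signal, which keep knockout heart c and knockout kidneys b and c, these medians were 0.83 and 0.28. The median of the 12 was 0.29, -1.10 and -0.79 on the knockout kidneys relative to wild type kidneys. Dbp, a clock output factor, was at 2.07 and 2.15 on knockout kidneys b and c, against 6.09 on knockout kidney a, 6.08 to 6.80 on wild type kidneys and 4.60 to 6.27 on hearts, and its difference of 2.16 ± 1.2 was not called (adjusted p of 0.430 by limma). Nfil3, a repressor of the same targets, was at -0.16, 1.25 and 1.51 on knockout kidneys against -1.92 to -1.22 on wild type kidneys, a kidney effect of 2.52 that was called (adjusted p of 0.0213 by limma) and a difference of -2.20 ± 0.51 that was not (0.113). Without knockout kidneys b and c, with knockout kidney a assumed to vary like the other groups, 566 genes were called. The median of the 48 immunoglobulin genes was then 5.98, with 48 positive and 28 called. The part of clock state, sex and carried-over tissue in the called differences was not tested beyond these values.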

How the data were processed

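The authors deposited 1 scanner file per array and a table of processed values. Per the file headers, the intensity used here is Agilent Feature Extraction 9.5.3.1's processed signal (background-subtracted and detrended); the submitters' processing notes give version 9.1. The deposited table holds log2 values centred per probe on the median of each tissue (100% of rows within 0.01 of 0); its scaling is not stated, and its column medians ran from -0.18 to 0.20.

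Control and outlier spots were left out, intensities set to log2 and shifted to the 75th percentile of each array (451.2 to 878.0), and spots of a probe averaged. Between 157 and 331 spots per array were saturated, and 3 arrays a group limit the precision. Names were updated by accession for 22951 probes, symbol for 6659 and synonym for 3109, while 8455 kept the files' name, as did 2 kappa transcripts in the text. The probe with the highest mean was taken per gene. A model of 4 groups was fitted with limma 3.58.1 in R 4.3.3 over 15038 genes, with Benjamini-Hochberg adjustment, and was tested on simulated data. The rule named the 12 largest called differences per direction with a symbol (filled to 8), carriers and receptors, up to 4 called members per list and up to 12 genes called in both tissues. Other genes were named after their values were seen. Members and lists were chosen with earlier results of these data known. Deviations of same-letter arrays correlated at 0.21 to 0.39 between the heart groups and at -0.14 to 0.13 between the kidney groups; the labels do not say what a letter marks. Alternatives covered scaling, background, filters, blocks, sex, the authors' table and each array left out.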

Additional observations from a re-analysis of the deposited data

Results flagged for a closer look

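For 17 named genes the knockout effect differed between heart and kidney by the test of the difference itself, with an adjusted p under 0.05 by limma. The differences higher in heart were 7.10 for BC108385, 6.68 for AB069910, 5.72 for LOC628027, 5.50 for LOC434026, 3.85 for Pou2af1, 3.60 for Fgg and 3.40 for Fbp1, whose probe was saturated in kidney. Those of Amn (2.99), Proc (2.97), Ces1c (2.83), Plg (2.58), Zbp1 (2.33), Klf1 (2.21) and Ankrd6 (1.80) were smaller. The differences higher in kidney were -1.89 for Zbtb8b, -1.52 for Ddit4l and -1.26 for 2210016L21Rik. All 17 kept their direction under all 27 alternatives, and AB069910 and Amn were the ones whose call held without each single array.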

How the results depend on the processing

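Counts of called genes moved widely. The difference, called for 46 genes, gave 24 with quantile scaling, 87 with median scaling, 0 with normexp, 109 with the filter on 1 group of each tissue, 78 without a filter, 2 with slide as a random block (correlation 0.238), and between 2 and 1018 with 1 array left out. Added after seeing the data, it gave 10 without knockout hearts a and b and 566 without knockout kidneys b and c. The heart count of 87 gave 4 with normexp, 168 with the looser filter, 12 with the slide block, 29 with sex as a covariate, 54 with only the arrays without Xist signal, 21 without knockout hearts a and b, and 14 to 1558 with 1 array left out. The kidney count of 55 gave 92 with median scaling, 15 with normexp, 29 without a filter, 83 with the slide block, 279 without Xist arrays, 127 without knockout hearts a and b, 843 without knockout kidneys b and c, and 14 to 159 with 1 array left out. The cause of these moves was not tested.

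Over all groups, 6 of 18 same-letter pairs of deviations correlated over 0.1 (-0.14 to 0.39), and an array correlated best with its own letter in 20 of 36 comparisons. With letter as a replicate block in all groups limma called 18 differences and 54 heart genes, with letter as a replicate block in heart alone, added after seeing the data, 123 and 267, and with genotype and letter as an animal block 0, with 2008 at an unadjusted p under 0.05.

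Of the named genes' values under the alternatives, 824 kept direction and side of the threshold, 219 lost the call, 38 gained it and 26 changed sign, all of them in genes not called. For Sik1 these were -0.065 with quantile scaling, -0.137 with median scaling, -0.142 with normexp, -0.279 without knockout kidneys b and c, and from -0.175 to 0.272 with 1 array left out. For H2-Bl they were -0.174 with median scaling, -0.085 with the slide block and from -0.135 to 0.339 with 1 array left out. With normexp they were -0.227 for Adora2b, -0.842 for Slc28a2, 0.070 for Sdf2l1 and -0.789 for Grin2c. Without Xist arrays they were 0.080 for Slc29a2 and -0.284 for H2-Eb1. Without knockout hearts a and b they were -0.009 for H2-Eb1 and 0.058 for Agpat1, and without knockout kidneys b and c -0.013 for Adora2b and -0.034 for Slc28a2. The authors' table, columns matched to arrays, gave 46 differences, all 46 shared. Low signal limits precision, and the median of the 48 immunoglobulin genes was -5.19 on wild type heart b, where 0 is the 75th percentile.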
